A study of Mus musculus with 6 samples.

Results

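Matricellular proteins are secreted into the extracellular matrix, where they act on cells and on other matrix proteins more than they bear load. Here 8 genes of this kind, chosen by symbol, were followed: Postn (periostin), Tnc (tenascin C), Sparc (osteonectin), Thbs1 and Thbs2 (thrombospondins 1 and 2), Fn1 (fibronectin, a structural matrix protein to which periostin and tenascin C bind), Spp1 (osteopontin) and Ecm1 (extracellular matrix protein 1). All 8 symbols were found among the 55809 in the table, and 7 of them, all but Thbs2, had counts high enough to be tested among 13956 genes.

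RNA sequencing had been run on 6 libraries of 410.4 cells, a mouse mammary carcinoma line, in 2 groups of 3. One group was kept for 2 days in control DMEM with 0.5% serum. The other was kept as long in such medium holding isolated neutrophil extracellular traps (NETs), the strands of chromatin studded with granule enzymes that neutrophils cast out. All libraries come from a single line without further genetic change or drug in the labels, and nothing in them names the source of the neutrophils. Whether the replicates were separate cultures is not stated either, so p-values reflect the spread of these libraries alone, and that spread may be technical. Total counts ran from 31119105 (NETs replicate 2) to 64431811 (control replicate 1).

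Periostin and tenascin C are scarce in most resting tissues and appear in wounds, in development and in the stroma of tumours, where they have been tied to the outgrowth of breast cancer metastases. Their genes, with Fn1 and Thbs1, are textbook targets of TGF-beta in fibroblasts, and thrombospondin 1 can in turn release TGF-beta from its latent complex. Osteopontin and the other proteins named signal to cells through integrins, and osteopontin also through CD44. The title of the series asks whether NETs activate TGF-beta in metastatic breast cancer cells, and the comparison here asks how the RNA of these matrix proteins differed in cells kept with NETs.

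With NETs, 6 of the 7 tested genes rose and 1, Spp1, fell. In the fit over all 13956 genes, 20.2% were called higher and 18.7% lower, and 38.9% in either direction (edgeR's quasi-likelihood test, Benjamini-Hochberg adjusted p under 0.05). The median log2 fold change of the 7 genes was 0.54, against -0.0039 over all genes tested. Scaled by library size alone, 35.9% of all calls were higher against 52.0% with the TMM scaling used here, while the same 7 calls were made. The rises were of unequal size: Postn, Sparc and Tnc rose 18.2-fold, 4.09-fold and 3.62-fold, and Ecm1, Fn1 and Thbs1 by 45.6%, 33.5% and 28.6%. For each of the 7 genes the values of the groups did not overlap, which was true of 49.0% of all tested genes (24.4% with higher and 24.5% with lower values with NETs). In bulk RNA, a change in the number of cells that express a gene and a change in its RNA per cell cannot be told apart, for rises and falls alike.

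To show the regulatory sequence at genes that moved in opposite directions, the 250 bases before a RefSeq start site are given for Postn, Tnc and Ecm1, which rose, and for Spp1, which fell. They are written 5′ to 3′ on the gene's strand, in build GRCm38.p6, from windows that overlap no annotated exon of the gene in GENCODE M21. Postn is chr3:54360857-54361106 (plus strand, the downstream of 2 RefSeq starts), Tnc chr4:64047016-64047265 (minus strand, the upstream of 2 starts), Ecm1 chr3:95739570-95739819 (minus strand) and Spp1 chr5:104434861-104435110 (plus strand, the upstream of 2 starts). Capitals mark matches to 4 motifs, searched on both strands and not overlapping one another here. The SMAD box was CAGAC, a site at which SMAD proteins can bind. The AP-1 motif, bound by FOS and JUN proteins, was TGANTCA. The TATA box, at which the transcription machinery can assemble, was TATAAA. The RUNX motif was AACCACA.
Postn: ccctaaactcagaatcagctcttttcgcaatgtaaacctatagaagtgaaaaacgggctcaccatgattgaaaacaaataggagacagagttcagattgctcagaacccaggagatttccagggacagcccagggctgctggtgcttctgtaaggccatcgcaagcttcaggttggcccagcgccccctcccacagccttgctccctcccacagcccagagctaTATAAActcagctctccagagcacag
Tnc: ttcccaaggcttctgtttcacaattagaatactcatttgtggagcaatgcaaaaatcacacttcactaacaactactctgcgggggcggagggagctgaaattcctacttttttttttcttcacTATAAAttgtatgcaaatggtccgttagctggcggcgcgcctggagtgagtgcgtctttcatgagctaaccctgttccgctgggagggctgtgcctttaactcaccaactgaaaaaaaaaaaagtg
Ecm1: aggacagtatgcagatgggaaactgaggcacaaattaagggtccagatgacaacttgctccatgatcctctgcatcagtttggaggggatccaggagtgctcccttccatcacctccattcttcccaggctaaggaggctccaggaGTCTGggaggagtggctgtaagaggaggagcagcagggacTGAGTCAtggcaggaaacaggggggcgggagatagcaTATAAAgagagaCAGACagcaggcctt
Spp1: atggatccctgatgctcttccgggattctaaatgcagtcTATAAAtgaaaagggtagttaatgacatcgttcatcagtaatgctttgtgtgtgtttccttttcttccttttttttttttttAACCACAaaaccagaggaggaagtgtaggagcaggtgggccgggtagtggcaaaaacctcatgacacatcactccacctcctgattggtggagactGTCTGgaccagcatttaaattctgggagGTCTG

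The Postn window shown holds a TATA box that begins 26 bases before the start and none of the other motifs. The Tnc window shown holds a TATA box 126 bases before the start. Ecm1 has a TATA box at 27 bases, an AP-1 match at 64 bases and SMAD boxes at 15 and 104 bases before its start. Spp1, the gene that fell, has SMAD boxes at 5 and 33 bases, a RUNX match at 129 bases and a TATA box at 211 bases. Sparc, whose window runs over exons of other transcripts and is not shown, has a SMAD box at 35 bases. The windows of the other starts, also not shown, hold SMAD boxes as well. They lie at 191 bases for Postn, at 70 bases for Tnc and at 41 bases for Spp1. The other Tnc window overlaps the one shown and holds the same TATA box, there at 205 bases before its start. The other Postn start lies 1842 bases from the nearest start in GENCODE M21, and the bases checked just after it are in no GENCODE transcript of the gene. Thbs2, which was too low to be tested, has SMAD boxes at 43 and 66 bases and a TATA box at 126 bases. Among 32851 windows of this length in the table, 42.2% held a SMAD box and 11.7% held at least 2, 12.4% a TATA box, 6.75% an AP-1 match and 4.4% a RUNX match. SMAD boxes thus stood before genes that rose and before the gene that fell, and a match is a run of letters, not a measured binding site. RefSeq windows were matched for 6 of the 8 genes, not for Fn1 and Thbs1.

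Postn, which encodes the periostin that links collagen, fibronectin and tenascin C and binds integrins, was at a low level in control medium. Its CPM (counts over the TMM-scaled library size, the usual unit of relative abundance) were 1.20, 1.59 and 0.617 in control replicates 1 to 3, from 80, 72 and 34 counts. With NETs they were 20.7, 20.8 and 19.8 CPM, from 927, 625 and 1022 counts. All libraries with NETs stood more than 10 times above the highest control library. The control libraries were spread over a 2.58-fold range and those with NETs over a 1.05-fold range. The change was 18.2-fold (log2 fold change 4.18 ± 0.19 SE, adjusted p = 1.87e-09 in edgeR), the 29th largest rise of the 13956 genes. With 1 library left out, the fold moved between 14.9 without control replicate 3, which had the lowest CPM, and 21.8 without control replicate 2, which had the highest control CPM.

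Tnc encodes tenascin C, a hexamer that weakens the attachment of cells to fibronectin. It read 35.9, 34.3 and 38.3 CPM in control medium and 130, 135 and 129 CPM with NETs. The libraries of each group lay close together, and the gap between the groups was many times the spread within them. Tnc rose 3.62-fold (log2 fold change 1.86 ± 0.06 SE, adjusted p = 6.49e-14), with the 34th smallest p-value of the genes tested. Sparc encodes a collagen-binding glycoprotein that takes part in collagen deposition. Its values were 2.65, 2.52 and 1.96 CPM in control medium and 9.91, 9.10 and 10.2 CPM with NETs, a rise of 4.09-fold (log2 fold change 2.03 ± 0.13 SE, adjusted p = 2.25e-09). The 3 libraries with NETs each had more than 3 times the Sparc CPM of the highest control library.

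Fn1 and Thbs1 were abundant already in control medium and rose by small folds. Fibronectin is assembled by cells into fibrils on which other matrix proteins are laid down. Fn1 had 2674, 2585 and 2553 CPM in control medium and 3439, 3375 and 3617 CPM with NETs (log2 fold change 0.42 ± 0.05 SE, adjusted p = 6.84e-06). Thbs1 had 438, 487 and 491 CPM in control medium and 600.3, 594 and 626 CPM with NETs (log2 fold change 0.36 ± 0.05 SE, adjusted p = 3.32e-05). In both genes the lowest library with NETs was above the highest control library. Gene counts do not separate the splice forms of fibronectin or tenascin C.

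Thbs2, the paralogue of Thbs1, was not detected above the limit in any library. It had 4 counts in control replicate 2, 4 in NETs replicate 2 and 0 in each of the other 4 libraries. Since most low counts in the table are even numbers and both mates of a pair appear to have been counted, the limit was set at 6 counts, or 3 fragments, which is 0.0902 to 0.199 CPM depending on the library and covers counting error only. No fold change is given, and no difference between the groups was detectable at this depth. Per kilobase of exon, that limit is at most 0.0285 CPM in any library, while Thbs1 had at least 72.2 CPM in each.

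Spp1, the gene of osteopontin, a secreted phosphoprotein and cytokine, was the exception in direction. It read 2521, 2835 and 2580.0 CPM in control medium and 1862, 1969 and 1829 CPM with NETs. The highest library with NETs lay below the lowest control library. Spp1 fell by 0.49 on the log2 scale (SE 0.06, adjusted p = 3.16e-06), a change of -28.7%. Ecm1, whose product binds perlecan and other matrix proteins, was expressed at a low level and rose by 0.54 on the log2 scale (SE 0.11, adjusted p = 0.000575). Its values were 7.11, 7.65 and 6.43 CPM in control medium and 9.39, 10.6 and 10.8 CPM with NETs, so that the groups were separate but closer to each other, relative to their spread, than those of Tnc.

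**Figure D1:**
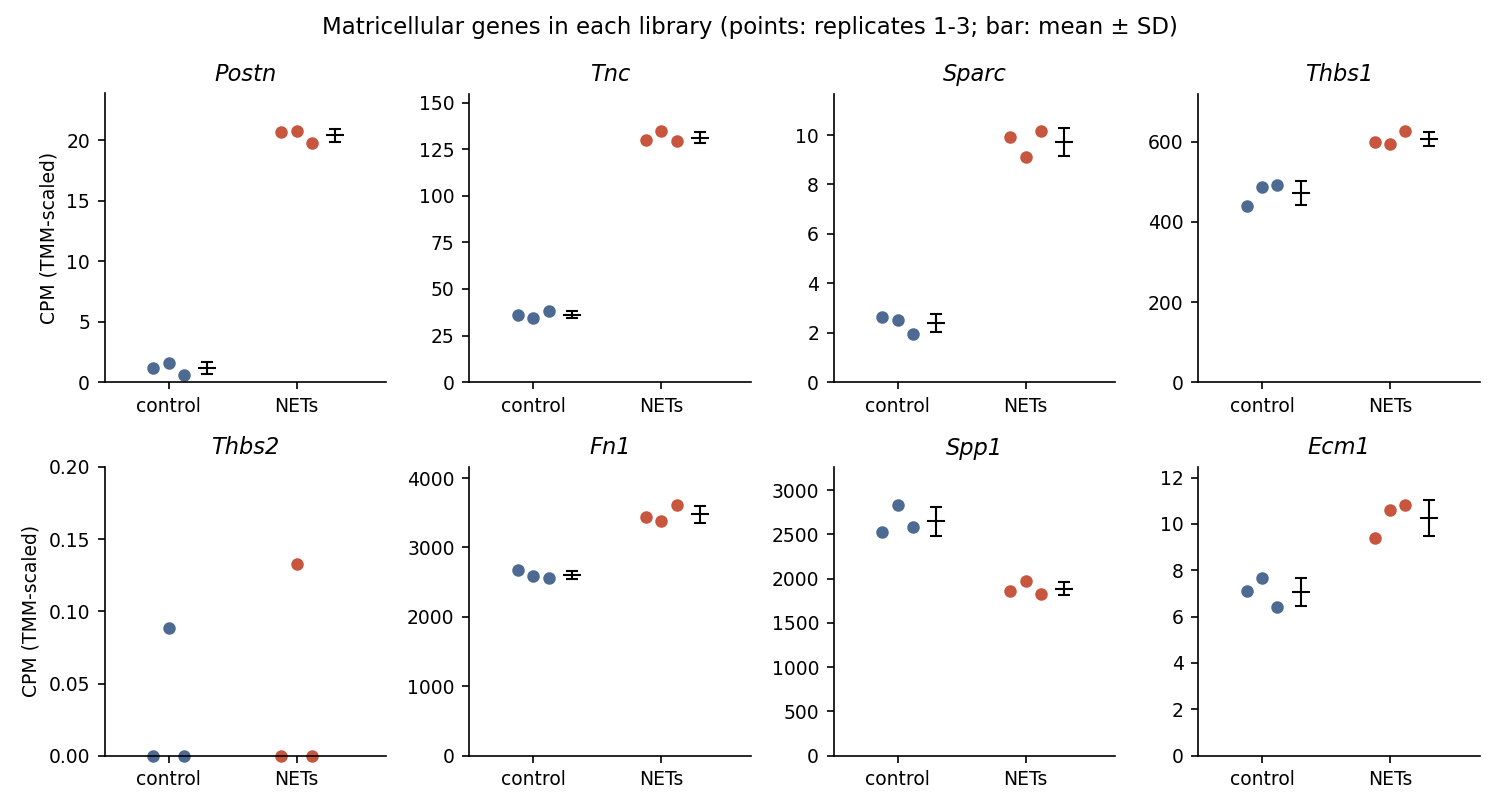
CPM (TMM-scaled, linear axes from 0) of the 8 genes in each library, control at left and NETs at right, with mean ± SD bars for all but Thbs2. Postn goes from 0.617 to 1.59 CPM up to 19.8 to 20.8 CPM, Spp1 is the only tested gene with lower values with NETs, and Thbs2 has counts in 1 library of each group.

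Levels can be compared between genes only per length, and were therefore divided by the summed exon length in the table. This length takes in all annotated exons of a gene and can exceed that of any single transcript, so the levels are approximate. In CPM per kilobase of exon, control medium gave the order Spp1 (1605 ± 101, mean ± SD, n = 3), Fn1 (223 ± 5.35), Thbs1 (77.7 ± 4.81), Tnc (4.65 ± 0.259), Ecm1 (2.80 ± 0.244), Sparc (0.627 ± 0.0963), Postn (0.131 ± 0.0564) and Thbs2. With NETs the same order held, at 1145 ± 44.7 for Spp1, 298 ± 10.7 for Fn1, 99.9 ± 2.82 for Thbs1, 16.9 ± 0.384 for Tnc, 4.07 ± 0.306 for Ecm1, 2.57 ± 0.146 for Sparc and 2.35 ± 0.0605 for Postn. Neighbours in the order did not overlap in their library values in either group. The closest pair was Sparc and Postn with NETs, where the lowest Sparc library had 2.40 and the highest Postn library 2.39. The order of this pair rests on the lengths used (8702 bases for Postn, 3788 for Sparc). Before division Postn had the higher mean with NETs, 20.4 against 9.72 CPM. In control medium the mean of Sparc was 4.80 times that of Postn, and with NETs 1.09 times. Spp1 ranked 6th of the 13956 tested genes by this measure in control medium and 9th with NETs, and Fn1 went from 138th to 90th, and Postn from 13130th to 9371st.

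**Figure D2:**
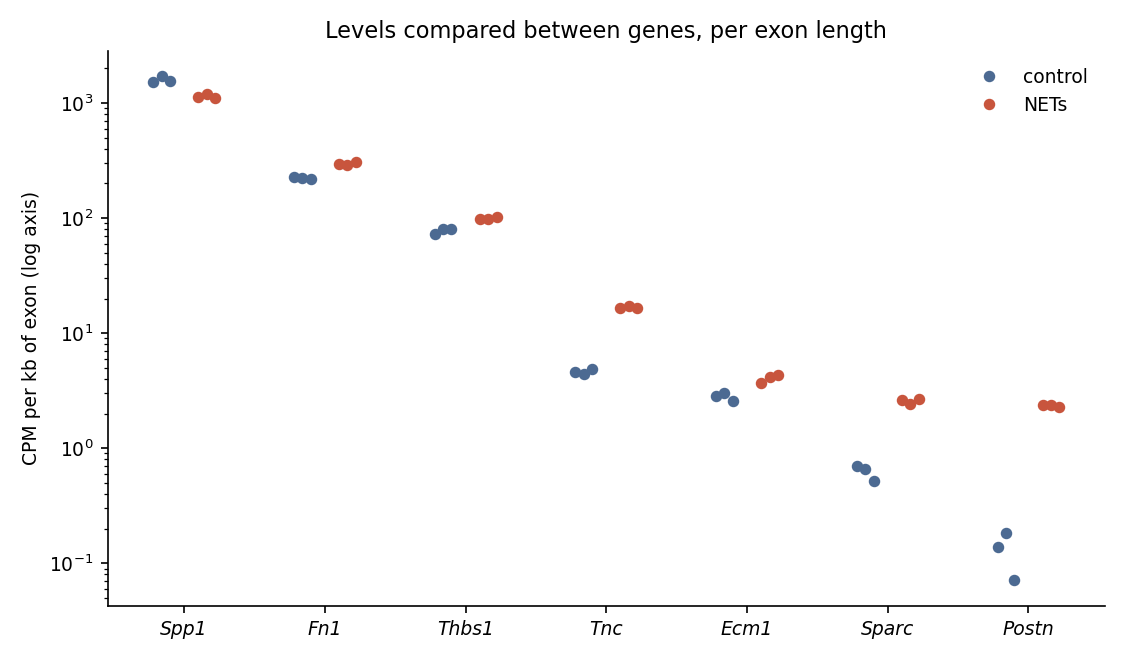
CPM per kilobase of exon (log axis) in each library for the 7 tested genes, ordered by their control level; blue is control and red is NETs. Abundance falls from Spp1 at 1605 to Postn at 0.131 in control medium, and the largest folds are at the right, among the genes with the lowest levels.

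Large folds and large amounts of RNA thus fell on different genes. On this per-length scale, the mean difference between NETs and control was -460.4 for Spp1, 74.7 for Fn1, 22.2 for Thbs1, 12.2 for Tnc, 2.22 for Postn, 1.94 for Sparc and 1.27 for Ecm1. Together the 8 genes took 0.572% to 0.613% of a library's counts in control medium and 0.592% to 0.609% with NETs. This joint share, of counts not divided by length, overlapped between the groups. Long genes such as Fn1 (11685 bases of exon) weigh more in it than Spp1 (1648 bases). On the per-length scale, the mean fall of Spp1 was larger than the mean rises of the other genes together. The make-up of the per-length sum, which is a different total from the share of counts, shifted. Spp1 went from between 83.2% and 84.7% of the per-length sum of the 8 genes to between 71.7% and 74.3%. Fn1 went from between 10.9% and 12.4% to between 18.0% and 19.99%, Thbs1 from between 3.92% and 4.31% to between 6.08% and 6.66%, and Tnc from between 0.217% and 0.263% to between 1.07% and 1.08%. These shares sum to a whole, so a lower share of one gene raises the others.

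Ratios of counts inside a library do not depend on how libraries are scaled, and were taken for pairs of genes whose proteins bind one another. Fn1 had 74.4, 75.4 and 66.7 counts for each Tnc count in control replicates 1 to 3, and 26.5, 25.1 and 28.0 with NETs. On the log2 scale the ratio of Tnc to Fn1 was higher with NETs by 1.44. For Postn to Tnc the difference was 2.40 and for Postn to Fn1 3.84. The ratio of Postn to Fn1 follows from those of Postn to Tnc and Tnc to Fn1, so it is not a separate result. Each of the 3 ratios was higher in every library with NETs than in every control library. With 3 libraries against 3 the exact two-sided permutation test cannot go below p = 0.10, which each of the 3 ratios reached (0.133 after adjustment over the 4 pairs). A ratio of Thbs1 to Thbs2 was also taken (difference -0.05, exact permutation p = 0.80), but it rests on the 4 counts of Thbs2 in 1 library of each group and says nothing of the pair.

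**Figure D3:**
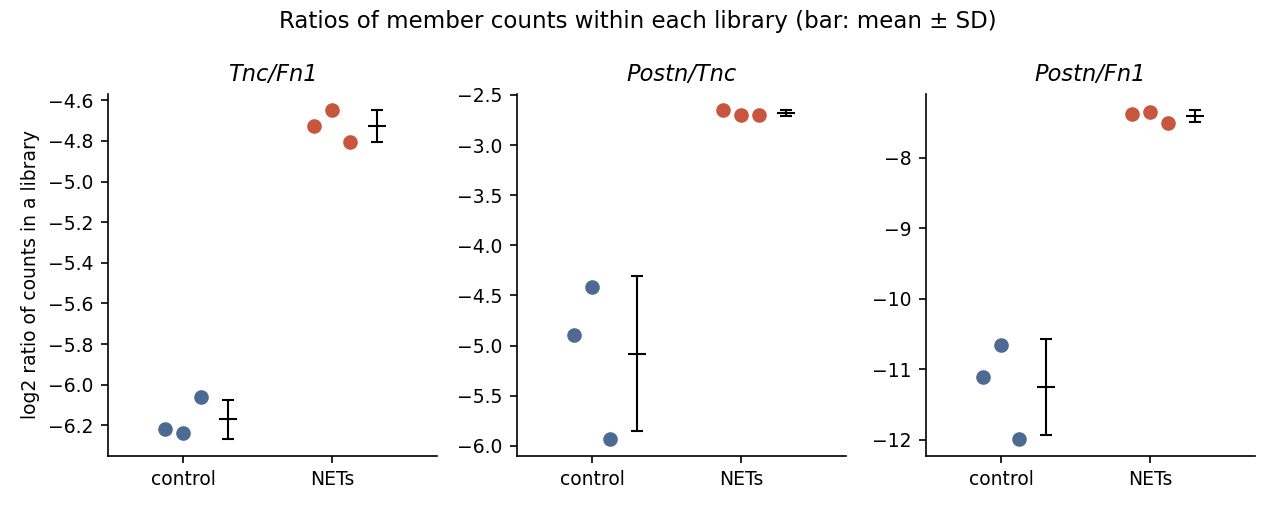
Log2 ratio of the counts of 2 genes within each library (0.5 added to each count) for Tnc to Fn1, Postn to Tnc and Postn to Fn1, with mean ± SD; the axes do not start at 0. In each panel the 3 libraries with NETs lie above the 3 control libraries, and the control spread is widest for the ratios with Postn, which had 34 to 80 counts there.

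Most close relatives of the 8 genes had too few counts to be tested. Of 20 listed genes, most of them in the families of the thrombospondins, tenascins, SPARC, osteopontin and periostin, 6 had enough counts to be tested. The list also holds Vtn (vitronectin) and Ecm2, which lie outside these families. Of the 6 tested, 3 rose and 0 fell (median log2 fold change 0.39). Over all tested genes 20.2% were called higher and 18.7% lower, with a median of -0.0039. Thbs3 rose by 0.59 on the log2 scale, from 2.96 ± 0.310 to 4.45 ± 0.303 CPM (mean ± SD, n = 3, adjusted p = 0.00348 in edgeR). Dmp1, a bone matrix phosphoprotein gene of the osteopontin family, went from 0.788 ± 0.247 to 1.93 ± 0.467 CPM (adjusted p = 0.00163). Sparcl1, a relative of Sparc, reached 0.702 ± 0.131 CPM from 0.0348 ± 0.0312 CPM (adjusted p = 2.34e-05), a control level under the limit of 6 counts. Tgfbi, the paralogue of periostin, had a control level of 0.466 ± 0.0810 CPM, against 0.459 ± 0.129 CPM (adjusted p = 0.925). Of the rest Tnxb and Smoc1 did not pass the test either, and Spock3, Mepe, Dspp and Vtn had no count in any library.

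Receptors for these proteins moved in both directions. Of 18 on the list 14 were tested, and 10 rose and 3 fell (median log2 fold change 0.50), where 20.2% of all tested genes were called higher and 18.7% lower. Itga4 had no count in any library. Itgb5 and Itgb6, beta subunits that pair with the alpha v chain in receptors for osteopontin, fibronectin and periostin or tenascin C, rose 1.97-fold and 2.64-fold, to 600.0 ± 10.9 and 25.8 ± 1.56 CPM (adjusted p = 5.21e-11 and 6.90e-10). Sdc1, a heparan sulfate proteoglycan that binds fibronectin and tenascin C, rose from 596 ± 35.6 to 1158 ± 2.88 CPM (adjusted p = 1.89e-10). Itga8, an alpha subunit of a receptor for fibronectin, osteopontin and tenascin C, fell from 13.6 ± 0.564 to 2.84 ± 0.289 CPM (adjusted p = 6.71e-11). The other receptor genes called lower, added after values were seen, were Sdc4 and Itga3. Sdc4 fell from 522 ± 14.5 to 320 ± 10.9 CPM (adjusted p = 4.02e-09 in edgeR). Itga3 fell from 2189 ± 64.0 to 1509 ± 87.1 CPM (adjusted p = 6.12e-07 in edgeR). Itgb3, singled out after its values were seen, rose 7.12-fold from 0.565 ± 0.161 to 4.06 ± 0.530 CPM (adjusted p = 2.79e-08). Cd44, the other osteopontin receptor, went from 721 ± 16.1 to 675 ± 2.92 CPM without passing the test (adjusted p = 0.106), and it was called lower with library size alone, where 4 receptors were lower. Itga8 shares exon sequence with E030013I19Rik on the opposite strand, and since no source states how strand was handled in counting, its value is uncertain.

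Among 16 enzymes and matrix partners that cut, modify or bind these proteins, 11 were tested, and 6 rose and 2 fell (median log2 fold change 0.50), beside the same 20.2% and 18.7% of all genes. Mmp9, a gelatinase that can cut osteopontin and other matrix proteins, rose 14.0-fold to 1770 ± 66.6 CPM (adjusted p = 2.55e-17). Col1a1, a chain of the collagen to which periostin and SPARC bind, rose 11.3-fold from 1.18 ± 0.129 to 13.4 ± 2.48 CPM (adjusted p = 2.34e-11). Bmp1, a procollagen protease that periostin binds, rose 1.55-fold to 551 ± 1.79 CPM (adjusted p = 1.07e-08), and the membrane protease gene Mmp14 rose 1.83-fold to 282 ± 9.12 CPM (adjusted p = 2.20e-09). Hspg2, the gene of perlecan, a partner of Ecm1, had 166 ± 10.7 and 167 ± 16.2 CPM (adjusted p = 0.933). One rise of this list was not called with library size alone, which left 5.

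**Figure D4:**
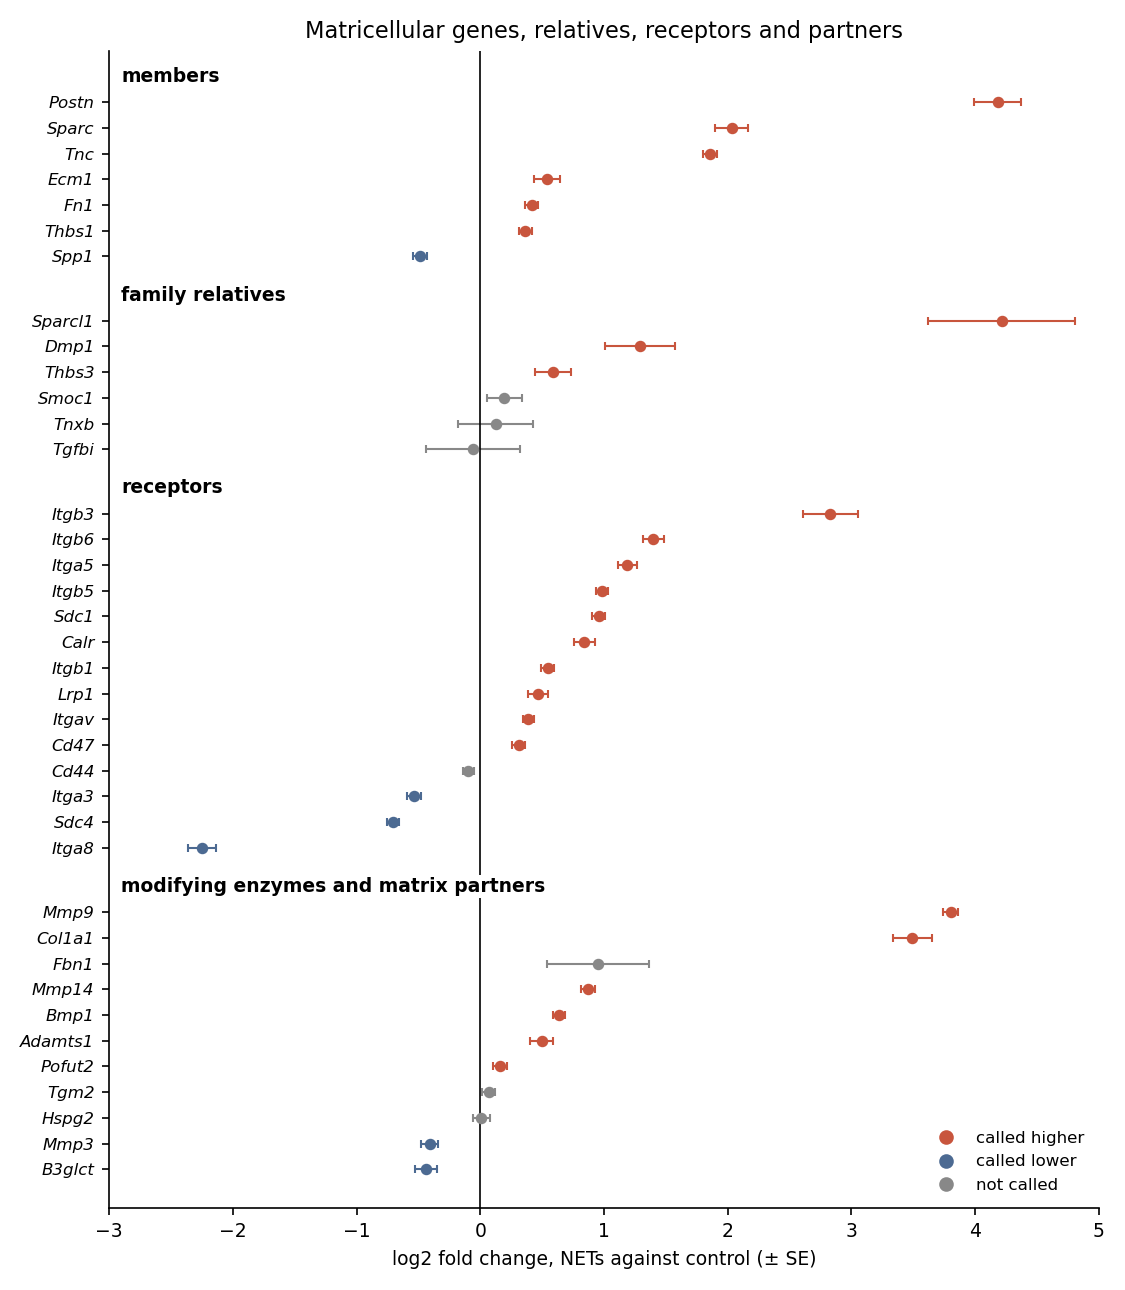
Log2 fold change of NETs against control with its SE (edgeR) for the 7 tested genes and the tested genes of the 3 related lists; red was called higher, blue lower and grey neither. Among the 7 genes Spp1 alone lies left of 0, while the receptors run from -2.25 (Itga8) to 2.83 (Itgb3).

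The profile of Tnc over the 6 libraries, measured by Pearson's r of log2 CPM, was most like those of Gja1 (the gap junction protein connexin 43, r = 0.9998), Has2 (a hyaluronan synthase, r = 0.9996) and Sfn (the 14-3-3 protein stratifin, r = 0.9995). For Postn the closest were Gmppb (r = 0.9985), Stard10 (r = 0.9984) and Coro6 (r = 0.9983). The 6 points fall into the 2 groups, which sets most of each r: of 10080 other genes that averaged 5 CPM or more, 321 had r over 0.99 with Tnc and 113 with Postn. A high r here says nothing of the size of the change, since Stard10 rose 1.30-fold.

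Postn, Sparc and Col1a1 are genes of fibroblasts in many tissues and Spp1 of macrophages, so markers of other cells were read beside them. Epithelial markers were high in both groups, with a summed level of 3589 to 3840.2 CPM in control medium and 3841 to 4070 CPM with NETs over 6 genes, of which 2 were called higher and 2 lower. Of 8 fibroblast markers, Dcn, Lum and Thy1 were at 0 in all libraries and Col3a1, Col1a2 and Pdgfrb had means under 0.1 CPM, while the sum went from between 42.8 and 48.7 CPM to between 59.3 and 68.0 CPM. Most of it was Pdgfra (45.4 and 49.2 CPM, adjusted p = 0.164) and the rest mainly Col1a1. Of 12 neutrophil markers 7 were at 0, among them Elane, Camp and Ngp, and the sum was 1.42 to 2.01 CPM in control medium and 2.59 to 2.83 CPM with NETs. Nearly all of it was S100a8, the only marker of that list high enough to be tested, which rose from 1.38 to 2.63 CPM (adjusted p = 0.00136). Among 8 macrophage markers Adgre1 was at 0 and Lyz2 at or near 0 (means of 0.0242 and 0 CPM), and the sum went from between 56.3 and 61.9 CPM to between 112 and 119 CPM. Of the 4 tested, Csf1r rose (24.1 and 80.2 CPM, adjusted p = 1.65e-12), Mrc1 fell (1.05 and 0.405 CPM, adjusted p = 0.00169), and the median log2 fold change was -0.01. Cd68 had 12.4 and 10.7 CPM (adjusted p = 0.166). Of 5 endothelial markers Cdh5 alone was above 0.1 CPM (13.0 and 15.8 CPM, adjusted p = 0.0266), and the sum was 12.3 to 14.2 and 14.2 to 16.9 CPM. The part of Csf1r-expressing or other cells in the results was not tested.

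In the coordinates of the deposited table, counted from 1, Postn spans positions 54268530 to 54298458 of chromosome 3, Tnc 63878022 to 63965252 of chromosome 4, Sparc 55285326 to 55314009 of chromosome 11, Thbs1 117942357 to 117957614 of chromosome 2, Thbs2 14885762 to 14914497 of chromosome 17, Fn1 71624679 to 71692359 of chromosome 1, Spp1 104582984 to 104588916 of chromosome 5 and Ecm1 95641459 to 95646881 of chromosome 3. These spans take in exons and introns. They do not follow the GRCm38 positions used for the promoter windows above: only 11.6% of 38933 symbols overlapped their GRCm38 position. Exons of Tnc, Thbs1 and Fn1 overlap genes on the other strand (8030451A03Rik, Gm29233 and Apol7d), which had 49, 10 and 123 counts over all libraries against 22586, 155311 and 877771 for the 3 genes. On the same strand, Spp1 shares 309 bases of exon with Gm42793 (292 counts, against 675070 for Spp1) and Ecm1 shares 63 bases with Mir7014 (0 counts), overlaps that strand cannot resolve.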

How the data were processed

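The authors deposited raw counts per gene symbol in 1 featureCounts table. STAR 2.7.10a, Subread 2.0.3 with featureCounts, and build mm10 are named in the submitters' processing notes. Build mm10 is GRCm38, whose positions the deposited coordinates do not follow, so the build behind the counts is uncertain. How strand and multi-mapping reads were handled, and which annotation was used, is not given in the sources. Per the labels, a stranded mRNA library kit was used. In each library 74.8% to 78.4% of counts from 1 to 20 were even, so both mates of a pair appear to have been counted. Each count column was matched to its sample by the number in the sample title.

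Genes were filtered with filterByExpr (minimum count 10), scaled by TMM and tested with edgeR 4.0.16 in R 4.3.3 (glmQLFit, robust, medium as the only term). P-values were adjusted by Benjamini-Hochberg over all 13956 genes and called at 0.05. Each SE is the log2 fold change over the root of F. Within a group, libraries correlated at r = 0.991 to 0.995 across genes and differed by 9.62 to 25.2 times counting noise. These multiples were taken on the counts as deposited, so counting both mates of a pair would inflate them. Each library was counted once. The fit was tested on simulated data. The genes and lists were chosen with earlier results of these data known. Named genes were the 8 genes, up to 4 called genes of each of 3 lists by smallest p, and the 3 genes nearest in profile to Postn and to Tnc. Itgb3, Itga3, Sdc4, Cd44, Tgfbi and Hspg2 were picked after seeing values. Marker lists covered 5 cell types. Alternatives were RLE, upper-quartile and library-size scaling, other filters, DESeq2 1.42.0, limma-voom (limma 3.58.1), a replicate block, each library left out, and, chosen after seeing the data, halved counts.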

Additional observations from a re-analysis of the deposited data

How the results depend on the processing

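Each of the 7 tested genes kept its direction and its call under all 15 alternatives, with the largest adjusted p at 0.00747 (Ecm1 without NETs replicate 3). The log2 fold changes ranged from 3.89 to 4.45 for Postn, 1.79 to 1.90 for Tnc, 1.91 to 2.13 for Sparc, 0.35 to 0.44 for Fn1, 0.29 to 0.39 for Thbs1, 0.47 to 0.60 for Ecm1 and -0.56 to -0.44 for Spp1. Counts of genes called stayed within 1.5 times, with 2106 higher and 3763 lower by library size alone. The ratio of Thbs1 to Thbs2 turned direction: without 1 library each it ran from -1.23 to 1.24, since Thbs2 had counts in 1 library of each group. Same-numbered libraries of the 2 groups deviated together with r of 0.118, -0.0593 and 0.0564, and differently numbered ones with r from -0.172 to 0.108. These values show no strong pairing by number. With 3 libraries in each group they cannot settle whether the samples were paired. With the replicate block 2969 genes were higher and 2713 lower, and the 7 calls were made, with log2 fold changes of 4.20 for Postn and -0.49 for Spp1. Depth limits Postn in control medium (34 to 80 counts) and Thbs2.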
